A study of Mus musculus with 8 samples.

Results

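A set of 37 genes was followed that carry out or control the synthesis of sterols and fatty acids and the export of cholesterol: 4 SREBP regulators, 16 enzymes of cholesterol synthesis, 10 genes of fatty acid and glycerolipid synthesis, 5 LXR receptors and efflux genes, and 2 genes of cholesterol esterification and transport. They were chosen by name, and each gene was taken from the array probes whose transcript belongs to it. All 37 had a probe (50 probes in all), and 36 were tested among 20736 features, of which 14491 were named genes. The fatty acid desaturase Fads2 was left out because its 1 probe was well above background on 5 of 8 arrays only, and on neither all WT nor all EP2KO arrays.

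SREBP transcription factors are held in the endoplasmic reticulum by Scap and Insig proteins while cholesterol is plentiful. When sterols run low they are released by cleavage and switch on the genes of cholesterol and fatty acid synthesis. LXR nuclear receptors respond to oxidised sterols and switch on cholesterol efflux pumps, and macrophages rely on both systems because they take up the lipids of dying cells and lipoproteins.

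The samples were macrophages isolated from mice given LPS, a bacterial endotoxin. WT mice were wild-type, and EP2KO mice lacked EP2, the prostaglandin E2 receptor encoded by Ptger2. All animals of both groups had received LPS, and no untreated group was analysed here. The labels give male mice but no strain, age, LPS dose, time or tissue of the macrophages, nor whether the deletion was in all cells, and they do not say that the 4 arrays of a genotype came from separate mice. The p-values therefore measure the spread between these samples, which may be technical.

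RNA was measured on 8 one-colour arrays, 4 of WT (WT 1 to 4) and 4 of EP2KO (EP2KO 1 to 4). Slide 1 held WT 1, WT 2, EP2KO 1 and EP2KO 2, and slide 2 held WT 3, WT 4, EP2KO 3 and EP2KO 4. Slides were scanned on different days, so slide and scan day coincide. WT arrays sat at the same positions on both slides and EP2KO arrays at others, and position therefore cannot be told apart from genotype. Between 25565 and 32156 of 39429 gene probes were well above background on an array. Precision is limited by how few arrays there are. Fewer cells of a type and less RNA per cell cannot be told apart in such bulk samples. Of 13 macrophage markers, 12 had a named probe and all 12 were well above background on all 8 arrays. Ptger2 had signals of 0.972, 1.12, 0.899 and 1.00 for WT 1 to 4 and of 0.357, 0.287, 0.323 and 0.224 for EP2KO 1 to 4, as multiples of each array's 75th percentile. Its log2 difference was -1.76 ± 0.17 (SE, n = 4 per genotype), with an exact two-sided permutation p of 0.0286, the smallest that 70 arrangements can give. Its limma adjusted p of 0.0615 missed the threshold of 0.05, and was 0.0328 with the slide as a block. The sources used here do not state whether its probe falls within the deleted stretch. Xist, the RNA of the inactive X chromosome, was well above background on all 8 arrays by both of its probes, although the labels give male mice. Of 5 probes for Y-linked genes, 1 Uty probe was so on 1 array and the others on none.

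Signals are given as multiples of the array's 75th percentile of gene spots, and differences as log2 of such signals with their standard error (SE) from limma. The SE of a genotype difference is from the fit without a block, so it also holds the spread between the slides. The SE of a slide difference is from the fit with genotype in the model. Levels are not compared between genes.

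None of these genes passed between the genotypes. In EP2KO minus WT, 18 of 36 tested genes were higher and 18 lower, and 0 passed an adjusted p of 0.05 (limma with Benjamini-Hochberg over all features). Over the whole array, 43.4% of features were higher in EP2KO, and 2 of 20736 passed, a percentage of 0.00965. With the slide as a block, 0 of 36 genes and 4 features passed (0.0193%). The genes' median difference was 0.00, against -0.03 for all features. With each array's median in place of the 75th percentile, 27 of 36 genes were above 0. The median difference was then 0.14 for the genes and 0.11 for all features, whose share above 0 was not counted. At an unadjusted p under 0.05 stood 1 of the 36, Gpd1, against 1.98% of all features, and 5 of 36 (13.9%) with the slide as a block, against 7.34% of all features. These 5 were Gpd1, Acaca, Srebf2, Scd2 and Soat1. Their SEs with the slide as a block were 0.13, 0.13, 0.16, 0.23 and 0.16. Over the 36 genes the differences ran from -0.86 to 0.56. A total of 13 of 36 (36.1%) kept the same sign on both slides, against 36.3% of all features. The plot of the genotype differences by slide shows both values for every gene.

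**Figure D1:**
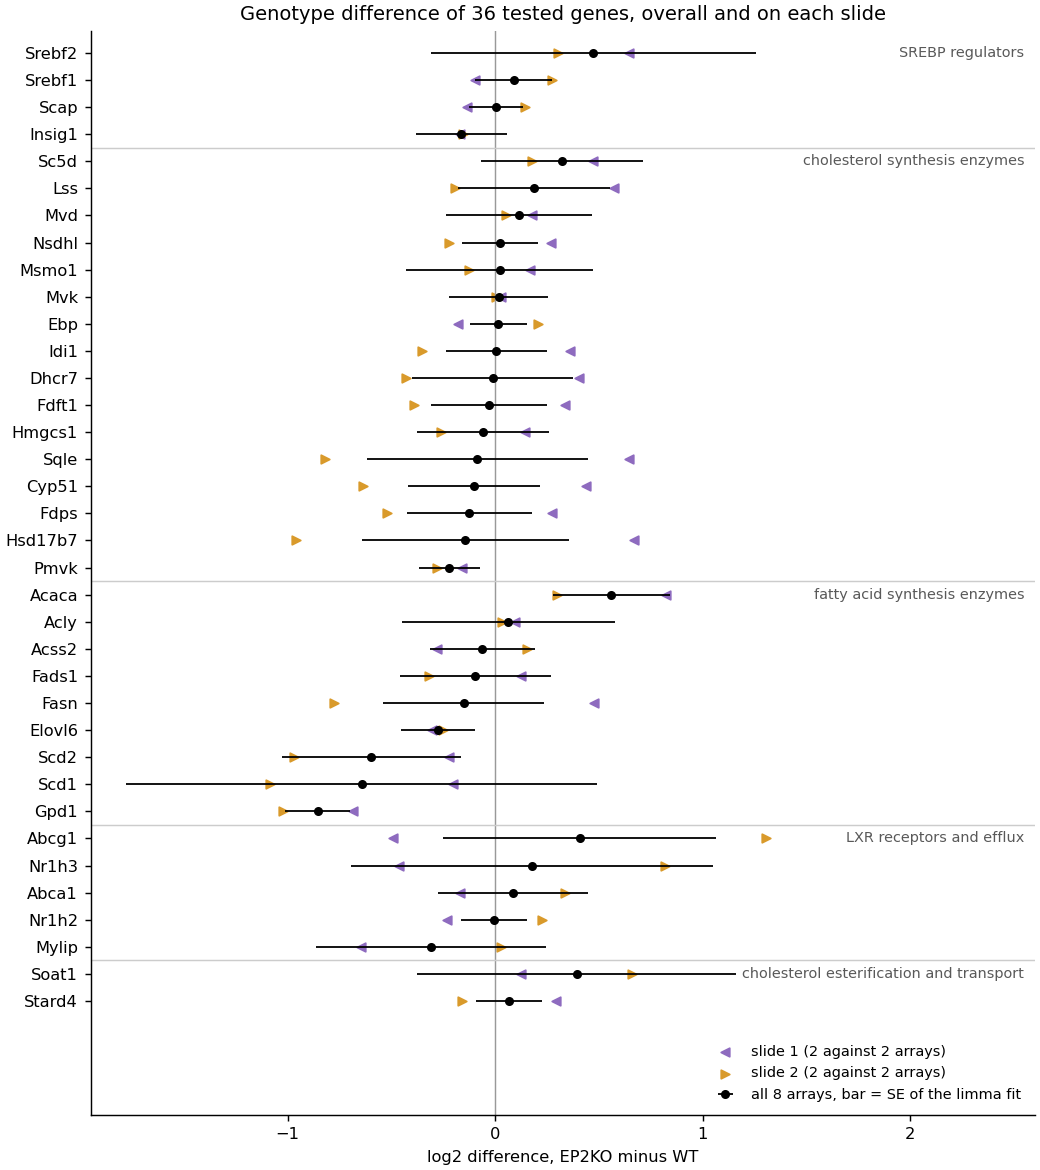
Log2 difference EP2KO minus WT for the 36 tested genes, by role: black points are all 8 arrays with the standard error of the limma fit as bar, and coloured triangles are the same difference within slide 1 and slide 2. Gpd1 lies at -0.86, with both triangles below 0, while for 12 of the 16 cholesterol synthesis enzymes the triangles lie on opposite sides of 0 under this scaling.

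Between the slides many of the genes differed. With genotype in the model, 12 of 36 (33.3%) were higher and 7 of 36 (19.4%) lower on slide 2 than on slide 1 at an adjusted p of 0.05, against 25.1% higher and 18.2% lower of all features. Of these 19 calls, 12 held under each of the 17 other ways of processing. The 7 that did not were Hmgcs1, Mvk, Lss, Acss2, Fads1, Abca1 and Abcg1. Whether the genotype difference itself differed between the slides was tested as an interaction: it called 0 of the 36 genes, and 3 features of the array (0.0145%). The lowest adjusted p of the 36 was 0.0913, for Nr1h3. Without WT 1 the interaction called 3 of the 36, Hsd17b7 (-2.11, limma adjusted p = 0.0396), Nr1h3 (1.29, adjusted p = 0.0384) and Abcg1 (1.98, adjusted p = 0.0498), when 1441 features passed (6.95%).

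**Figure D2:**
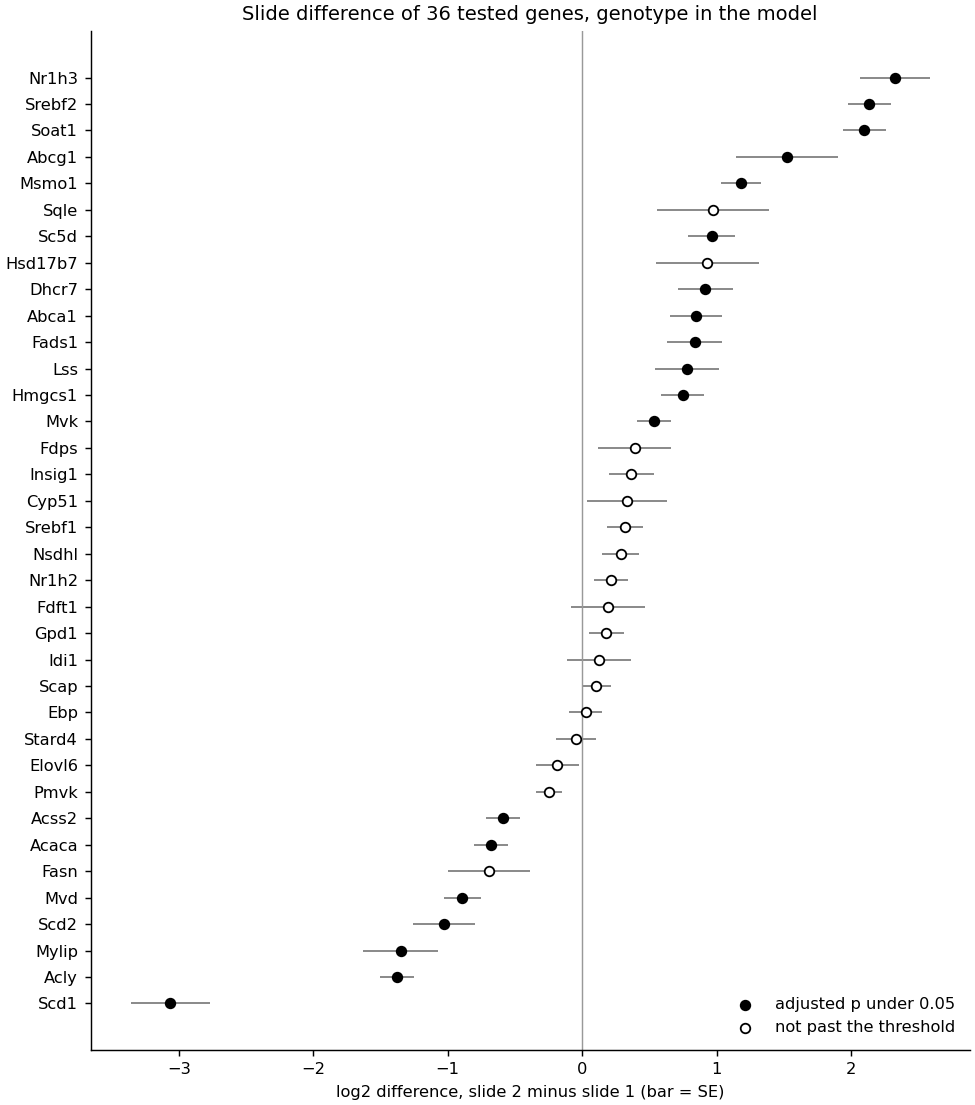
Log2 difference slide 2 minus slide 1 for the 36 tested genes, with genotype in the model, as points with the standard error of the limma fit as bar; filled points passed an adjusted p of 0.05. Nr1h3, Srebf2 and Soat1 lie above 2 and Scd1 lies at -3.07.

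Marker genes of other cells were counted beside these differences. The summed signal of 15 T and NK cell markers was 18.8 to 36.5 on slide 1 and 7.78 to 9.21 on slide 2, and that of 9 B cell markers 58.9 to 96.1 and 8.31 to 20.8. Mast cell markers (7 on the array) summed to 10.9 to 29.2 and 1.05 to 12.8. Adipocyte markers summed to 6.44 to 21.9 on slide 1 and 47.3 to 72.4 on slide 2. That sum is nearly all Fabp4, which macrophages also express; without it the sum was 0.148 to 0.286 over the 8 arrays. Markers of large peritoneal macrophages, 12 of 12 well above background on all arrays, summed to 148.8 and 187.3 in WT against 222.1 and 225.0 in EP2KO on slide 1, and to 98.0 and 93.9 against 136.5 and 153.9 on slide 2. Both EP2KO arrays thus lay above both WT arrays on each slide, and 11 of the 12 markers were higher in EP2KO. Of the 15 T and NK cell markers 15 were lower in EP2KO, and of 6 tested mast cell markers 6 were higher. Of all features, 43.4% were higher in EP2KO. The T cell markers Bcl11b and Cd8a were well above background on 6 and 7 arrays. They entered the test through WT or EP2KO alone, so their direction is no finding. With the slide as a block, 8 of the 12, 11 of the 15 and 6 of the 6 had an unadjusted p under 0.05, against 7.34% of all features. None of the 3 lists had a gene that passed over all features. The part of these cells in the genotype and slide differences was not tested.

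Among the SREBP regulators, 0 of 4 passed between genotypes. Srebf2 encodes the SREBP that mainly drives cholesterol synthesis. Its signal was 2.38, 1.63, 10.4 and 9.15 for WT 1 to 4 and 2.78, 3.40, 11.5 and 12.5 for EP2KO 1 to 4. All arrays of slide 2 lay above all of slide 1, by 2.14 ± 0.16 (4.39-fold, limma adjusted p = 0.000162). The genotype difference was 0.47 ± 0.78, with 0.64 on slide 1 and 0.30 on slide 2. Its SE was 0.16 with the slide as a block. A second Srebf2 probe gave a slide difference of -0.65 and a genotype difference of 0.10, so the probes of this gene disagree between the slides.

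Srebf1, the SREBP gene more tied to fatty acid synthesis, had signals of 0.163, 0.157, 0.155 and 0.199 in WT and 0.148, 0.151, 0.229 and 0.197 in EP2KO. The groups overlapped, at 0.09 ± 0.18. Scap, the escort of SREBPs to the Golgi, had signals of 5.74, 5.25, 5.05 and 5.69 in WT and 5.20, 4.81, 5.71 and 6.15 in EP2KO. Its groups overlapped, at 0.01 ± 0.13 between genotypes and 0.11 ± 0.11 between slides. Insig1, the sterol-dependent retention factor and itself an SREBP target, had signals of 0.151, 0.202, 0.242 and 0.207 in WT and 0.160, 0.150, 0.251 and 0.161 in EP2KO. These overlapped too, at -0.16 ± 0.22, with -0.17 on slide 1 and -0.15 on slide 2.

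The promoters of the cholesterol synthesis enzymes show what the group shares in sequence. Promoter windows, from 250 bases before to 50 after the start, were found for 28 of the 37 genes in the RefSeq table of GRCm38.p6 (35 windows), 13 of them cholesterol enzymes. The CCAAT box (CCAAT on either strand), bound by NF-Y, was in 13 of these 13 enzymes' genes, in 21 of the 28 genes and in 41.1% of the 27025 genes in the table. A GC box (GGGCGG on either strand), which Sp1 binds, was in 12 of the 13 (92.3%), in 22 of the 28 (78.6%) and in 38.2% of all genes. A core of the sterol regulatory element, written TCACNCCAC and searched on both strands, was in 1 of the 28, Hmgcs1, and in 1.4% of all genes. Such matches are descriptions, and no match says only that these letters are not in this window. Hmgcs1 is shown because it is the one window with the sterol core, and Msmo1, Mvk and Hsd17b7, chosen after their matches were seen, because they hold several CCAAT boxes. Each is the 250 bases before the start, 5′ to 3′ on the gene's strand, with CCAAT (or ATTGG on the other strand) in capitals and, in Hmgcs1, the sterol core 137 bases before the start.
Hmgcs1, GRCm38.p6 chr13:119690101-119690350, plus strand: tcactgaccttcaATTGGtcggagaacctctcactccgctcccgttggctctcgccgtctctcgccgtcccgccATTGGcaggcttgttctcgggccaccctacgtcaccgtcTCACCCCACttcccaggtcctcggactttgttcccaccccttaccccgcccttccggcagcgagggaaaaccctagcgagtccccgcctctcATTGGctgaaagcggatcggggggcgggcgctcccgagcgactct
Msmo1, GRCm38.p6 chr8:64733579-64733828, minus strand: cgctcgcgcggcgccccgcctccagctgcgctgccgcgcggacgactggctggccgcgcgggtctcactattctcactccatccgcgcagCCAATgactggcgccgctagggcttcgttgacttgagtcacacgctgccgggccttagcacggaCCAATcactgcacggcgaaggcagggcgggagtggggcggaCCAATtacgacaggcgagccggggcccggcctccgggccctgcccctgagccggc
Mvk, GRCm38.p6 chr5:114444019-114444268, plus strand: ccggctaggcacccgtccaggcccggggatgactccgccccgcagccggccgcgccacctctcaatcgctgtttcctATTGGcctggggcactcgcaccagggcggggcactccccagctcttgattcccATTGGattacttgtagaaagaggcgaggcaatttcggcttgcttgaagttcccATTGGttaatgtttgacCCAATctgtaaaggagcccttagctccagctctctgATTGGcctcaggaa
Hsd17b7, GRCm38.p6 chr1:169969206-169969455, minus strand: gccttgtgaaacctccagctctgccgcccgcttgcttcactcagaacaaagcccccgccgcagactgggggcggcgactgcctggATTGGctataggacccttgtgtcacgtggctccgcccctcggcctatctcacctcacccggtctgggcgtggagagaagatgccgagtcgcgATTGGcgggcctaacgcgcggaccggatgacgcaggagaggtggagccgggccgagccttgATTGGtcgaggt

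Among the cholesterol synthesis enzymes, 0 of 16 passed between genotypes and 0 passed in the interaction (lowest limma adjusted p = 0.156). Overall 8 were higher in EP2KO (median -0.00). On slide 1, 14 of 16 were higher in EP2KO (median 0.30), against 36.6% of all features. On slide 2, 4 of 16 were higher (median -0.27), against 56.7% of all features. With each array scaled to its median, 8 were higher on slide 2 and the group's median was -0.00. The share of all features was not counted under that scaling, so 56.7% is no measure for the 8. That scaling moved the median difference of all features over the 8 arrays to 0.11. Without WT 2, 10 of 16 were higher on slide 1 and the median was 0.10. Without WT 4 the count on slide 2 was 1, as it was without EP2KO 3.

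Arrays of one genotype on one slide also differed from each other. On slide 1, WT 2 was the lowest array for 14 of 16 enzymes (22.1% of all features) and EP2KO 2 the highest for 14 (18.5%). On slide 2, WT 3 was the highest for 13 (31.5%) and EP2KO 4 the lowest for 13 (20.4%). With the other scalings, normexp background or the mean of a gene's probes, these counts were 12 to 14 for WT 2 and for EP2KO 2, 8 to 13 for WT 3 and 6 to 12 for EP2KO 4. WT 2 lay below WT 1 in 14 of 16 enzymes (median -0.39), WT 4 below WT 3 in 16 (-0.38, but in 10 with normexp background) and EP2KO 4 below EP2KO 3 in 16 (-0.41). EP2KO 2 lay above EP2KO 1 in 14 of 16, by a median of 0.23. The plot of gene-centred signals by array shows the same shifts.

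**Figure D3:**
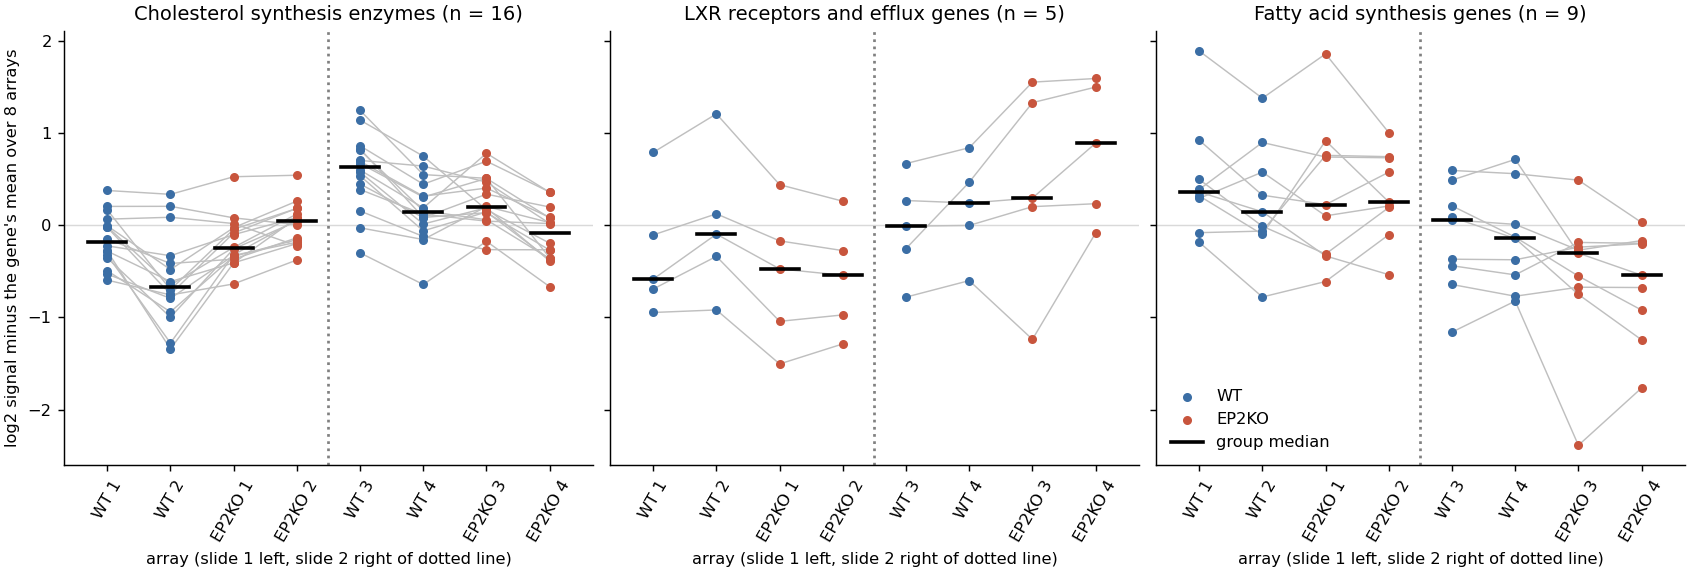
Log2 signal of each gene minus its mean over the 8 arrays, for cholesterol synthesis enzymes, LXR receptors and efflux genes, and fatty acid synthesis genes; points are genes, grey lines join a gene within a slide, and black bars are group medians. The enzymes' median is -0.67 on WT 2 and 0.63 on WT 3, and that of the LXR group is 0.89 on EP2KO 4.

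Fibroblast and mesothelial markers and cell cycle genes also varied between arrays of one genotype. On slide 1, 12 of 14 fibroblast markers (median 0.90) and 12 of 12 cell cycle genes (1.59) were higher in EP2KO, against 36.6% of all features. On slide 2 these counts were 0 of 14 (median -3.38) and 1 of 12 (-1.68), against 56.7% of all features. Sign counts that differed between the slides were not particular to the enzymes. In the interaction, 0 fibroblast markers and 0 cell cycle genes passed. The fibroblast list (14 of 14 markers well above background on all arrays, none at 0) had a gene-centred median of -1.11 on WT 2 against 0.39 to 1.16 on the other arrays of slide 1. On slide 2 it was 1.34 on WT 3, 1.36 on WT 4, -0.95 on EP2KO 3 and -2.91 on EP2KO 4. WT 4 lay level with WT 3 in this list, while the medians of the enzymes and of the cell cycle genes were lower on WT 4. The other pair of slide 2 went differently. The enzymes' median fell from 0.20 on EP2KO 3 to -0.09 on EP2KO 4, as did the fibroblast list's. That of the cell cycle genes was -1.68 on EP2KO 3 and -1.50 on EP2KO 4. The fibroblast list's summed signal was 24.9 to 139.7 in WT and 4.90 to 95.2 in EP2KO. The 12 cell cycle genes, all well above background on all arrays, had a median of -0.51 on WT 2 against 0.61 to 1.76 on the rest of slide 1, and 0.73 on WT 3 against -1.68 to -0.83 on the rest of slide 2. Their summed signal was 8.56 to 24.0 in WT and 5.28 to 46.0 in EP2KO. The part of either in the enzymes' values was not tested.

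Sqle, squalene epoxidase and a control point of the pathway, had signals of 1.71, 0.822, 4.94 and 3.05 for WT 1 to 4 and 1.57, 2.20, 2.96 and 1.63 for EP2KO 1 to 4. WT 2 was the lowest and WT 3 the highest of all arrays. The genotype difference was -0.09 ± 0.53, made of 0.65 on slide 1 and -0.82 on slide 2. Hsd17b7, a sterol ketone reductase, was at 0.67 on slide 1 and -0.96 on slide 2, and its other probe gave 0.73 and -1.16.

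Sc5d, which desaturates the sterol ring, had signals of 1.79, 1.32, 3.83 and 2.88 in WT and 2.00, 2.27, 4.34 and 3.24 in EP2KO. Its genotype difference was 0.32 ± 0.39, with 0.47 and 0.18 on the slides. On slide 2 it was higher by 0.96 ± 0.17 (limma adjusted p = 0.0044). Msmo1, a methylsterol oxidase, had signals of 5.88, 5.26, 16.1 and 12.1 in WT and 5.71, 6.84, 14.4 and 11.4 in EP2KO. The slides did not overlap, with slide 2 higher by 1.18 ± 0.15 (2.27-fold, limma adjusted p = 0.00107), while the genotype difference was 0.02 ± 0.45.

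Pmvk, which phosphorylates mevalonate phosphate, was the enzyme with the smallest unadjusted p. Its signals were 4.62, 4.62, 4.46 and 3.69 in WT and 4.24, 4.02, 3.34 and 3.33 in EP2KO, and the groups overlapped through WT 4. The difference was -0.22 ± 0.15, with -0.16 and -0.28 on the slides, and both probes gave -0.22. Lss, lanosterol synthase, had signals of 0.142, 0.0907, 0.288 and 0.224 in WT and 0.152, 0.187, 0.257 and 0.191 in EP2KO. That gave 0.19 ± 0.37 between genotypes, with 0.57 on slide 1 and -0.19 on slide 2. Fdps, farnesyl diphosphate synthase, had signals of 3.69, 2.38, 6.62 and 3.96 in WT and 3.16, 4.06, 4.10 and 3.09 in EP2KO. WT 2 and WT 3 were again its extremes, and the difference was -0.13 ± 0.30.

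In all, 6 of 16 enzymes were higher on slide 2 (Hmgcs1, Mvk, Lss, Msmo1, Sc5d and Dhcr7) and 1 was lower, 37.5% and 6.25% against 25.1% and 18.2% of all features. The one lower was Mvd, mevalonate diphosphate decarboxylase, with signals of 0.940, 0.913, 0.588 and 0.463 in WT and 1.04, 1.05, 0.641 and 0.456 in EP2KO (-0.89 ± 0.14, limma adjusted p = 0.00253). Hmgcs1, which makes the precursor of mevalonate and whose window holds the sterol core, had signals of 4.35, 3.46, 8.53 and 6.57 in WT and 3.98, 4.60, 6.98 and 5.60 in EP2KO. Its slide difference was 0.75 ± 0.16 (limma adjusted p = 0.00932), and it did not pass with normexp background. Lss did not pass between the slides in 7 of 17 alternatives. The other enzymes (Idi1, Fdft1, Cyp51, Nsdhl and Ebp) did not pass in either comparison, with genotype differences of -0.10 to 0.02. Mvk, mevalonate kinase, was at 0.02 and Dhcr7, the last enzyme of one branch, at -0.01 between genotypes. Fdft1, squalene synthase, has probes of opposite sign: 0.34 on slide 1 and -0.39 on slide 2 by the brighter, -0.52 and 0.13 by the other.

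Genes of fatty acid and glycerolipid synthesis held the widest genotype differences, and 0 of 9 tested passed. Of the 9, 2 were higher and 7 lower in EP2KO, while 43.4% of all features were higher.

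Gpd1 makes the glycerol 3-phosphate used for lipid assembly and is not itself a fatty acid enzyme. Its signals were 0.409, 0.352, 0.447 and 0.522 for WT 1 to 4 and 0.253, 0.220, 0.258 and 0.219 for EP2KO 1 to 4. Every EP2KO array lay below every WT array. The difference was -0.86 ± 0.16 (1.81-fold lower), with -0.69 on slide 1 and -1.02 on slide 2. The limma adjusted p was 0.823, and 0.132 with the slide as a block. Gpd1 was the 1 of the 36 genes whose genotypes did not overlap, as for 1.39% of all features.

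Acaca, acetyl-CoA carboxylase, which commits carbon to fatty acid synthesis, had signals of 3.81, 3.86, 2.97 and 2.77 in WT and 6.81, 6.75, 3.54 and 3.52 in EP2KO. Within each slide both EP2KO arrays were above both WT arrays, although over all arrays the groups overlapped. The difference was 0.56 ± 0.28, with 0.82 on slide 1 and 0.30 on slide 2. Its limma adjusted p was 1, against 0.711 in the fit with the replicate block and 0.263 in that with the slide block. The other probes of Acaca gave 0.46 and 0.36, and the gene was lower on slide 2 by 0.68 (-0.68 ± 0.13, limma adjusted p = 0.00541).

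The desaturases Scd1 and Scd2, which make monounsaturated fatty acids, were lower on slide 2. Scd1 had signals of 2.68, 1.88, 0.323 and 0.408 in WT and 2.62, 1.45, 0.138 and 0.212 in EP2KO. Its slide difference of -3.07 ± 0.29 (8.37-fold lower, limma adjusted p = 0.000362) was the largest of the 36 genes, and the genotype difference was -0.64 ± 1.13. Scd2 had signals of 4.83, 3.20, 2.71 and 2.31 in WT and 2.98, 3.80, 1.52 and 1.08 in EP2KO. The slide difference was -1.02 ± 0.23 (limma adjusted p = 0.0111), and the genotype difference -0.60 ± 0.43, with -0.22 on slide 1 and -0.97 on slide 2. On slide 2 both EP2KO arrays lay below both WT arrays for Scd1 and for Scd2, while on slide 1 they interleaved.

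Acly, which makes cytosolic acetyl-CoA from citrate, had signals of 32.2, 45.9, 15.8 and 14.4 in WT and 41.1, 40.9, 15.4 and 15.4 in EP2KO. No array of slide 2 reached those of slide 1 (-1.38 ± 0.13, limma adjusted p = 0.000318), and genotypes were at 0.06. Elovl6, an elongase, had signals of 0.522, 0.367, 0.385 and 0.372 in WT and 0.298, 0.423, 0.307 and 0.330 in EP2KO. It overlapped through EP2KO 2, at -0.28 ± 0.18, with -0.30 and -0.25 on the slides.

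Acss2, acetyl-CoA synthetase, was lower on slide 2 (-0.59 ± 0.13, limma adjusted p = 0.00932) and the desaturase Fads1 higher (0.84 ± 0.21, limma adjusted p = 0.0154, lost without EP2KO 1), with genotype differences of -0.06 and -0.10. Fasn, fatty acid synthase, passed in neither, at -0.15 ± 0.39 between genotypes, with 0.48 on slide 1 and -0.78 on slide 2. In all, 5 of 9 (55.6%) were lower on slide 2 and 1 (11.1%) was higher, against 18.2% and 25.1% of all features. Fads2, not tested, had signals of 0.0123, 0.00459, 0.00939 and 0.00935 in WT and 0.0113, 0.0117, 0.00502 and 0.00532 in EP2KO, and was not well above background on WT 2, EP2KO 3 and EP2KO 4.

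**Figure D4:**
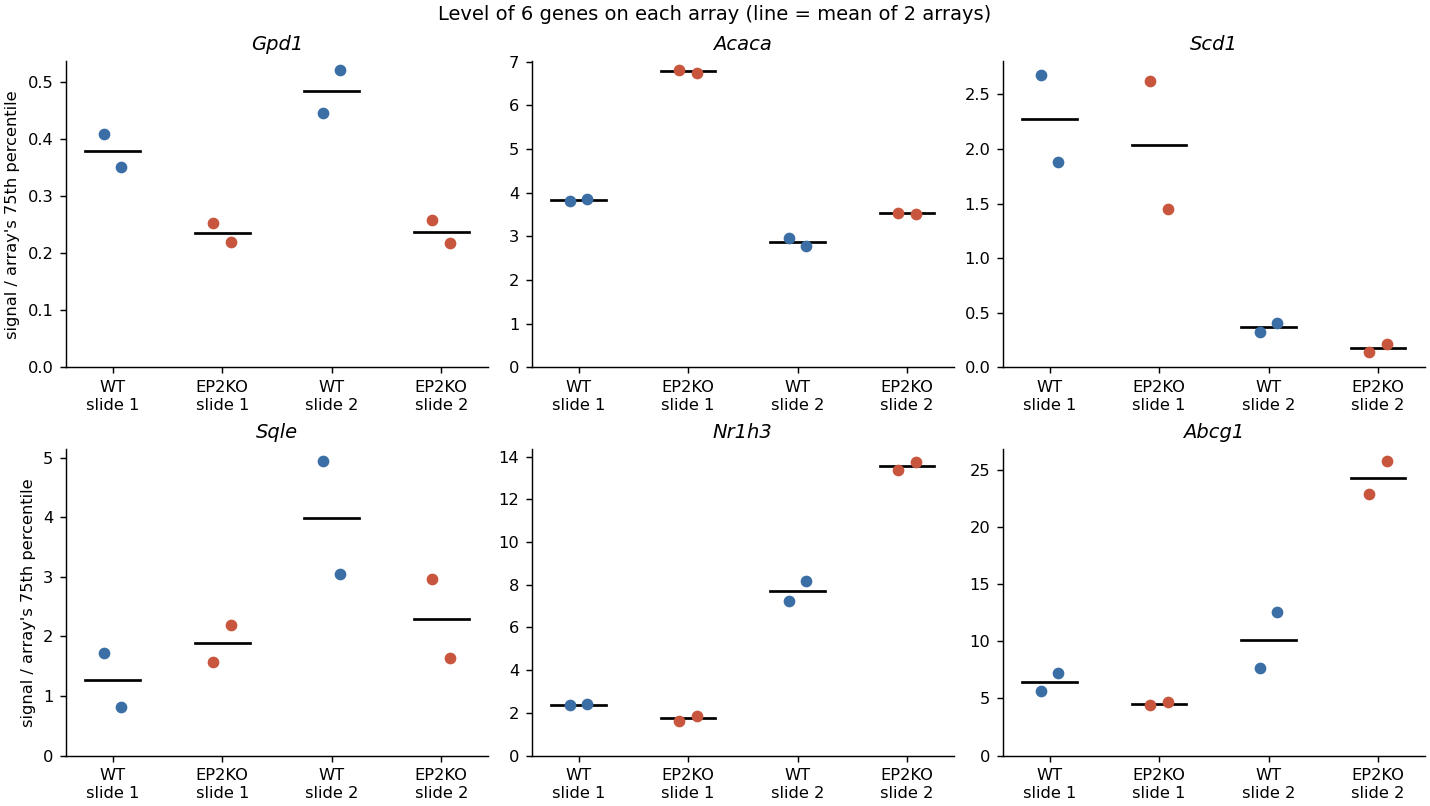
Signal of 6 genes on each array, as multiples of the array's 75th percentile on a linear axis from 0, by genotype and slide; points are arrays and lines are means of 2 arrays. For Gpd1 the 4 EP2KO arrays (0.219 to 0.258) lie below the 4 WT arrays (0.352 to 0.522); for Nr1h3 and Abcg1 the highest points are EP2KO arrays of slide 2.

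Of the LXR receptors and efflux genes, 0 of 5 passed between genotypes and 0 in the interaction, so the counts by slide that follow are of signs. On slide 1, 0 of 5 were higher in EP2KO (median -0.46), against 36.6% of all features. On slide 2, 5 of 5 were higher (median 0.34), against 56.7% of all features, with Mylip at only 0.03. The count was 4 with quantile normalization and 4 without WT 3 or without EP2KO 4. Without WT 2 the count on slide 1 was 1. WT 2 was the highest array of slide 1 for 5 of 5 (49.3% of all features), and EP2KO 4 the highest of slide 2 for 5 of 5 (26.4%). With the other scalings, normexp background or the mean of probes these counts were 4 or 5.

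Nr1h3 encodes LXR alpha. Its signals were 2.37, 2.41, 7.25 and 8.17 in WT and 1.61, 1.87, 13.4 and 13.7 in EP2KO. The EP2KO arrays were below WT on slide 1 and above WT on slide 2 with no overlap on either. The differences were -0.46 and 0.82, and the interaction was 1.28 (limma adjusted p = 0.0913). The other probe gave -0.42 and 0.95. On slide 2 it was higher by 2.33 ± 0.26 (5.02-fold, limma adjusted p = 0.000624).

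Abcg1, which exports cholesterol to HDL particles, had signals of 5.64, 7.20, 7.64 and 12.6 in WT and 4.42, 4.64, 22.9 and 25.7 in EP2KO. Its pattern was that of Nr1h3, at -0.49 on slide 1 and 1.31 on slide 2 (interaction 1.80, limma adjusted p = 0.115), and slide 2 was higher by 1.52 ± 0.38 (limma adjusted p = 0.0165), a call lost without EP2KO 1 or without EP2KO 3. Abca1, which exports cholesterol to lipid-poor apolipoprotein A-I, had signals of 3.70, 5.18, 6.67 and 6.55 in WT and 3.99, 3.80, 6.80 and 10.3 in EP2KO. EP2KO 4 stood above the rest, and the genotype difference was 0.09 ± 0.36. The slide difference of Abca1 was 0.85 ± 0.19 (limma adjusted p = 0.0111), and it did not pass with normexp background.

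Mylip, the ubiquitin ligase that removes lipoprotein receptors and an LXR target, had signals of 4.17, 5.58, 1.41 and 1.59 in WT and 3.27, 2.89, 1.02 and 2.28 in EP2KO. It was lower on slide 2 (-1.35 ± 0.28, limma adjusted p = 0.00788), opposite to the efflux pumps. The genotype difference was -0.31 ± 0.56, with -0.65 on slide 1 and 0.03 on slide 2. Its other probe gave -0.08, with -0.52 and 0.36 on the slides. Nr1h2, which encodes LXR beta, differed by -0.00 ± 0.16 between genotypes (slide 1 -0.23, slide 2 0.22) and did not pass between the slides.

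Soat1 esterifies cholesterol for storage in droplets. Its signals were 0.479, 0.465, 1.46 and 1.92 in WT and 0.493, 0.537, 2.94 and 2.40 in EP2KO. Slide 2 was higher by 2.10 ± 0.16 (4.28-fold, limma adjusted p = 0.000166), and the genotype difference was 0.39 ± 0.77. Stard4, a cytosolic sterol carrier and SREBP target, had signals of 0.665, 0.535, 0.713 and 0.640 in WT and 0.650, 0.820, 0.639 and 0.572 in EP2KO. All differences were small, at 0.07 ± 0.16 between genotypes and -0.05 ± 0.15 between slides, the latter -0.42 by its other probe.

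The wider pathways gave the same count of 0. Of 82 other genes listed, 76 were tested, and 0 passed between genotypes, with or without the slide as a block, or in the interaction. At an unadjusted p under 0.05 between genotypes stood 1, 0 and 1 of the sterol, fatty acid and LXR lists, against 1.98% of all features. Of 31 sterol pathway genes 13 were higher in EP2KO, of 25 fatty acid and glycerolipid genes 15, and of 20 LXR targets and partners 12. Of all features, 43.4% were higher. Higher on slide 2 were 9 (29.0%), 9 (36%) and 5 (25%) of these lists, against 25.1% of all features. Lower were 2 (6.45%), 5 (20%) and 5 (25%), against 18.2%.

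The genes with the smallest unadjusted p were as follows. Npc1l1, the intestinal cholesterol uptake protein, was at -1.75 ± 0.66 and the oxysterol hydroxylase Cyp7b1 at -1.56 ± 0.78. Npc1l1 was dim, with a signal of 0.136 on WT 1 and 0.0148 to 0.0391 on the other WT arrays. In EP2KO it was 0.00747 to 0.0127, and the difference was -2.57 on slide 1, which holds WT 1, and -0.94 on slide 2. Tmem97, a regulator of the lysosomal cholesterol transporter, was at 0.33 ± 0.21. Acacb, the mitochondrial acetyl-CoA carboxylase, was at -0.47 ± 0.29, Lpin1, a phosphatidate phosphatase, at 0.56 ± 0.46 and the acyltransferase Gpam at 0.37 ± 0.28. Gpam was well above background on 6 arrays and entered the test through WT or EP2KO alone, so its direction is no finding. Among LXR genes the coactivator Ncoa1 was at 0.21 ± 0.17 and the apolipoprotein Apoc1 at 1.13 ± 0.96. The sterol transporter Abcg5 was bright enough to pass on 4 WT arrays and on 0 of EP2KO, so it entered the test only through WT, where it is brighter, and its direction is no finding. As a description it was at least 4.32-fold lower in EP2KO (limma adjusted p = 1), and at least 2.68-fold without WT 1. That bound sets the WT mean against, per EP2KO array, its own signal or, if higher, the dimmest signal that any probe well above background had there. Its signal was 0.135 on WT 1 and 0.009 to 0.047 on the other WT arrays. Intestinal epithelial markers were also lower in EP2KO in 7 of 7 tested, while 43.4% of all features were higher. Epcam and Cdh17 were well above background on 7 arrays and Fabp1 and Krt20 on 6. These entered the test through WT or EP2KO alone, so their direction is no finding. The 9 markers on the array summed to 22.7 on WT 1 and 0.538 to 2.67 on the other WT arrays. On EP2KO arrays they summed to 0.476 to 0.843. The part of these markers in the values of Npc1l1 and Abcg5 was not tested.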

How the data were processed

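RNA of 8 macrophage samples had been hybridised to 1-colour Agilent arrays. The deposited scanner tables give the intensity of every spot, linear and already background-corrected but not scaled between arrays, per the file headers (Feature Extraction 10.7.1.1; the submitters' processing notes name 9.1). The deposited series table was identical in intensity. Its scale and direction are thus those of the processed signal.

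From these, log2 of the processed signal minus each array's 75th percentile was taken. Control spots and outlier-flagged spots were left out, and spots of a probe averaged. Probes were named through RefSeq transcripts (27508 of 39429 named). Probes had to be well above background on all arrays of one genotype or both, and each gene was represented by its brightest such probe. Differences were tested with limma 3.58.1 (R 4.3.3, linear fit with eBayes, Benjamini-Hochberg over 20736 features, two-sided). The slide and interaction tests used limma in the same way with their own models, as did the fits with a slide or replicate block. The genotype test, without a block and with the slide as a block, was checked on simulated data. The slide, interaction and replicate-block fits were not checked in this way.

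Values on every array are given for genes called in a genotype, slide-blocked or interaction fit and, per role, for up to 4 with the smallest unadjusted genotype p and up to 3 with the largest slide difference, and from each other list up to 3 with the smallest p. Hmgcs1, Mvd, Hsd17b7 and the remaining genes were added after their values were seen. Members and lists were chosen with earlier results of these data known. Deviations from the genotype means correlated between arrays of equal replicate number (r across features 0.74, 0.12, 0.55 and 0.43). Each such pair also shares a slide, so these values cannot tell pairing by number from the slide. The replicate number was used as a block in an alternative fit only. The alternatives covered scaling, background, filters, probe choice, blocks, the variance model, array weights and leaving out arrays in turn. The normexp background (offset 50) used the median spot signal, since no mean spot signal is in the scanner files used here.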

Additional observations from a re-analysis of the deposited data

Results flagged for a closer look

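In 3 of 84 groups of 4 arrays, 1 array lay far from the other 3 of its genotype, measured as its distance from the closest array divided by the whole range. They were Insig1 on EP2KO 3 (ratio 0.857), Pmvk on WT 4 (0.845) and Elovl6 on WT 1 (0.865). Chance gives about 4.2 such groups, 1 in 20.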

How the results depend on the processing

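In none of the alternatives did a gene of the set pass between genotypes. The lowest limma adjusted p of any member was 0.0838, for Gpd1 on slide 2 alone. The number of features called over the whole array (2) was 4 with the slide as a block, 0 with the replicate block, 0 on slide 1 alone, 217 on slide 2 alone and 0 to 4 with each array left out. The replicate block changed no call for the 36 genes. Genes called in the interaction (0) ranged from 0 to 3 with an array left out. Cholesterol synthesis enzymes higher in EP2KO on slide 2 (4) were 8 with the median of each array and 1 to 6 with an array left out. LXR genes higher in EP2KO on slide 1 (0) were 0 to 1 with an array left out, 1 of them without WT 2. The causes were not tested. Genes called between the slides (12 higher, 7 lower) were 8 and 6 with normexp background and 15 and 9 with array weights. Scaling to the median moved the median genotype difference of all features from -0.03 to 0.11, and normexp to -0.12. Over 462 values of 22 named genes under alternatives, 457 stayed within 1 SD between replicates of the main value and 5 did not. That SD was taken within a genotype over both slides, so it is wide for genes that differed between the slides. Nr1h3, for example, counted as within it at 0.18 in the main fit and -0.46 on slide 1 alone. The deposited series table, the slide and replicate blocks and the variance model cannot move a gene's difference. The filters did not move it for these genes. Values under all of these are among the 457. The count is therefore a loose measure. In 52 of the 462 values the sign differed, none of them a call. The alternatives on each lead count by slide were added after the data had been seen.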

Other observations

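Of the other pathway genes tested, 8 are given here by their slide difference; they were chosen after their values were seen and stand for no group. Slide 2 was higher for the lysosomal cholesterol exporter Npc1 (1.96 ± 0.10), the lysosomal lipase Lipa (2.06 ± 0.13), the cholesteryl ester hydrolase Nceh1 (2.51 ± 0.15), the lipid sensor Pparg (3.16 ± 0.24), the scavenger receptor Cd36 (2.09 ± 0.17) and the droplet coat protein Plin2 (1.80 ± 0.10), as log2 differences with the standard error of the limma fit. Slide 2 was lower for Mlxipl, the carbohydrate-responsive factor for lipid synthesis (-3.27 ± 0.23), and the triglyceride synthase Dgat2 (-1.78 ± 0.21). All 8 passed an adjusted p of 0.05, as did 25.1% of all features for higher and 18.2% for lower on slide 2.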
